A study of Mus musculus with 12 samples.

Results

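Enteroendocrine cells are the hormone-secreting cells of the gut lining, and 10 genes that mark them were followed through RNA sequencing of mouse distal colon. The genes were chosen by name: the L cell hormones Gcg, Pyy, Insl5 and Nts, the hormones Sst and Cck, the serotonin enzyme Tph1, and the granule proteins Chga, Chgb and Scg2. They are 10 of the 35241 gene symbols measured, and all 10 were found. In the colon, L cells release peptide hormones that act on appetite, insulin secretion and gut motility, whereas enterochromaffin cells make serotonin. Both cell types store their products in dense-core granules, which are packed with granins such as chromogranin A and chromogranin B. Enteric neurons use some of the same peptides and granins, so a homogenate of the whole colon wall holds RNA of both sources.

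Full-thickness distal colon was taken from 12 untreated mice of 2 litters. All carried homozygous loxP-flanked Spry2, a gene for an intracellular inhibitor of growth factor signaling. The 6 Spry2IEKO mice also carried a Vil1::Cre transgene, whose villin promoter is active in the intestinal epithelium, and the 6 Spry2FF littermates did not. Each litter, A and B, held 3 mice of each genotype. Spry2IEKO mice were 5 females and 1 male, and Spry2FF mice were 3 females and 3 males, so that sex and genotype overlap in part. The labels give an age of 6 weeks in one protocol and 8 weeks in another, and no background strain. Levels are given as normalized TPM, which are length-corrected transcript abundances (TPM) scaled between mice, so genes can be compared per length. In bulk tissue, fewer cells of a type and less RNA per cell cannot be told apart.

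The Spry2 level was 18.5 to 22.5 in Spry2IEKO mice and 22.8 to 32.3 in Spry2FF mice, without overlap (exact permutation test, two-sided p = 0.0022, the smallest p that 6 mice against 6 allow), as a check of the labels. By limma over all 15880 genes the log2 difference of Spry2 was -0.45. It ranked 16th by p and did not pass, with an adjusted p of 0.160. Genes of smooth muscle, fat, B cell follicles and enteric neurons varied between mice. The summed level of 7 fat genes was 20.8 to 113 in 10 mice and higher in Spry2IEKO mice 4 and 5. That of 6 B cell follicle genes ran from 3.36 to 417.

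The most abundant hormone transcripts were Insl5, which codes for insulin-like peptide 5, and Pyy, which codes for peptide YY. Their mean levels were 178 and 171 normalized TPM, which placed them 732nd and 765th among the 15880 genes whose mean reached 0.5. Together they made up 64.3% ± 3.93 (SD, n = 12 mice) of the summed level of the 10 genes. Insl5 was above Pyy in 8 of 12 mice, and their ranges overlapped. Chgb followed at a mean of 67.3, below Pyy in all 12 mice and without overlap of the ranges.

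Gcg, the gene of proglucagon and hence of GLP-1, had a mean level of 42.5, and Chga had 41.6. These neighbours changed places between mice, Gcg being the higher in 7 of 12. Scg2, the gene of secretogranin II, followed at 16.6, below Chga in all 12 mice. Tph1, the rate-limiting enzyme of serotonin synthesis outside the brain, had a mean level of 13.2, and Sst, the gene of somatostatin, had 7.79. The ranges of Scg2 and Tph1 overlapped, as did those of Tph1 and Sst. Cck and Nts lay at the bottom with mean levels of 0.446 and 0.119.

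**Figure D1:**
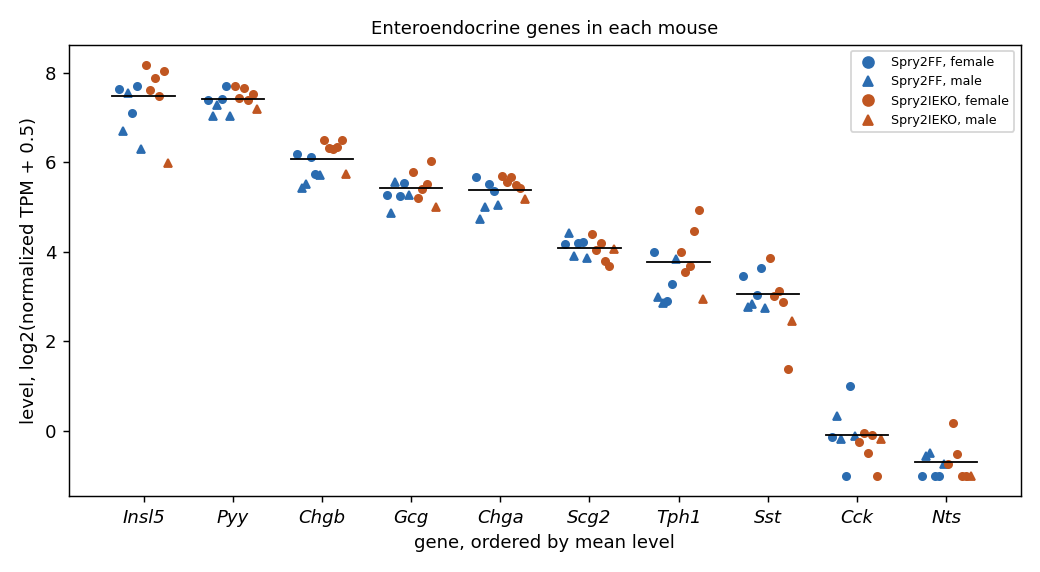
Level of each gene in each of the 12 mice as log2(normalized TPM + 0.5), with genes ordered by mean level, colour for genotype, circles for females and triangles for males; horizontal bars mark the log2 of the mean level plus 0.5. Insl5 and Pyy stand at the top, and Cck and Nts lie near the level of a gene listed at 0.

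Nts, which codes for neurotensin, was listed at 0 in 6 of 12 mice and reached 0.638 in Spry2IEKO mouse 5. Of the 6 mice above 0, 5 were of litter A (exact permutation of the litters, two-sided p = 0.0281, unadjusted, over values near 0). Cck was listed at 0 in 2 mice and was otherwise between 0.214 and 1.51. Of the summed Cck level, 88.0% came from a single transcript, ENSMUST00000216176. Nts and Cck fell under the mean of 0.5 that was required for the model across genes, so that 8 of the 10 genes were tested. Among other gut hormones, Gip and Gast were listed at 0 in all 12 mice. Ppy, the gene of pancreatic polypeptide, stood at 14.2 to 36.3 and was thus more abundant than Sst in every mouse.

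Promoter sequences are shown for the granins and Sst. The cyclic AMP response element TGACGTCA, a textbook site of granin and somatostatin promoters, was searched in RefSeq promoter windows of GRCm38.p6, which run from 250 bases before to 50 bases after each start. All 10 genes matched, with 13 windows. The element, which reads the same on both strands, stood in the windows of Chgb, Scg2 and Sst and in 1.79% of all 32851 windows. Its first 5 bases, TGACG, which the full element contains, stood on either strand in windows of 7 of the 10 genes and in 20.8% of all windows. These letters were not in the windows of Gcg, Pyy and Insl5. The 30 bases around the element are shown for the 3 genes that hold it, beside those of Chga, which holds only the short form although its level was the most like that of Chgb among the 10 genes. The capitals mark TGACGTCA, or TGACG in Chga.

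Chgb, chr2:132781559-132781588, + strand: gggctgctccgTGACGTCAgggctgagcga
Scg2, chr1:79440076-79440105, - strand: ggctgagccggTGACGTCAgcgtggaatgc
Sst, chr16:23890874-23890903, - strand: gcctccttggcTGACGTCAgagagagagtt
Chga, chr12:102554884-102554913, + strand: gggggcggtcctaTGACGtaatttcctggg

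The capitals begin 72, 68, 48 and 44 bases before the RefSeq start of Chgb, Scg2, Sst and Chga. GENCODE M21 places the starts of Chgb, Scg2 and Sst further upstream, and the bases shown for these 3 genes overlap an annotated exon there, whereas those of Chga do not. A match describes these letters only.

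By genotype, Chgb had the lowest p of the 8 genes tested. Chgb, chromogranin B, had its lowest, median and highest level at 53.0, 80.6 and 90.2 in Spry2IEKO mice and at 42.8, 52.7 and 72.6 in Spry2FF mice. The groups overlapped through the male Spry2IEKO mouse 8, whose level was the 53.0, and every Spry2IEKO female was above every Spry2FF mouse. The log2 difference was 0.50 (SE 0.154, 95% interval 0.17 to 0.83), with an adjusted p of 0.656 by limma over all 15880 genes and a rank of 152nd by p. The exact permutation test of Chgb alone gave a two-sided, unadjusted p of 0.0152, and permutation within litters gave 0.025.

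Since 5 of the 6 Spry2IEKO mice were females, Chgb was also compared within females. There Chgb was 78.2 to 90.2 in 5 Spry2IEKO mice and 53.4 to 72.6 in 3 Spry2FF mice, without overlap (exact permutation, p = 0.0179, the smallest that this design allows). Of all genes tested, 1.87% were higher in Spry2IEKO females without overlap. With sex in the model the log2 difference fell to 0.32 (adjusted p = 0.956 by limma). The unadjusted p of Chgb was 0.0044 by limma in that fit and 0.0064 without sex. Over all genes, 702 had an unadjusted p under 0.05 with sex in the model and 981 without. Summed over 10 genes, the epithelial level was 5793 to 7295 in Spry2IEKO and 7084 to 8658 in Spry2FF mice, and its part in these differences was not tested.

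Chga, chromogranin A, reached 35.6, 45.9 and 51.3 as lowest, median and highest level in Spry2IEKO mice against 26.0, 36.5 and 50.6 in Spry2FF mice. The groups overlapped, and the log2 difference of 0.29 (95% interval -0.04 to 0.62) had an adjusted p of 0.833 by limma. The Chga difference was 0.11 with sex in the model and 0.0586 among females alone. It was 0.51 in litter A alone, 0.0656 in litter B alone and 0.45 when scaled to the epithelial genes. Scg2 had 12.3, 16.2 and 20.5 in Spry2IEKO and 14.2, 17.7 and 20.8 in Spry2FF mice, with a log2 difference of -0.10 (95% interval -0.38 to 0.18).

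Tph1 varied widely within both genotypes. Its lowest, median and highest level were 7.27, 14.0 and 30.3 in Spry2IEKO mice and 6.74, 8.41 and 15.6 in Spry2FF mice. The groups overlapped. Spry2IEKO mice 11 and 12, females of litter B, were above the Spry2FF range at 21.7 and 30.3, and Spry2IEKO mouse 4 was level with its top at 15.6. The log2 difference was 0.62 (95% interval -0.05 to 1.30, adjusted p = 0.826 by limma), and 0.45 with sex in the model. Mast cells can also express Tph1, and a list of 12 of their genes was read beside it. Tpsab1 and Fcer1a were listed at 0 in all 12 mice, Mcpt4, Cpa3, Ms4a2 and Tpsb2 reached at most 0.495, and Hdc, Mcpt2 and Mcpt1, the latter 2 being mucosal mast cell proteases, reached 0.691, 1.43 and 1.74. Gata2 was 0.325 to 2.03 and Kit, which other cells of the gut wall also express, was 12.8 to 24.2. The protease gene Cma1 was 10.1 to 31.7 in Spry2IEKO mice and 3.33 to 9.06 in Spry2FF mice, without overlap, and was the only 1 of 4 tested genes of the list to pass (log2 difference 1.90, adjusted p = 0.035 by limma). It did not pass with sex in the model (1.72, adjusted p = 0.0942), without a filter on low levels (adjusted p = 0.0783) or in 10 of 12 fits that left out 1 mouse. The summed level of the list was 27.8 to 59.2 in Spry2IEKO and 19.3 to 28.9 in Spry2FF mice. Over the 12 mice its mean log2 level had Pearson r of 0.76 with Chgb and 0.47 with Tph1, and its part in these differences was not tested.

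Over all mice, the L cell hormones did not separate by genotype. Gcg ran from 31.8 to 64.6 (median 43.7) in Spry2IEKO mice and from 28.9 to 46.6 (median 38.2) in Spry2FF mice. Pyy ran from 146 to 209 (median 178) and from 132 to 208 (median 162), and Insl5 from 62.9 to 288 (median 216) and from 78.1 to 210 (median 162). All 3 pairs of ranges overlapped. The log2 differences were 0.20 for Gcg (95% interval -0.16 to 0.55), 0.17 for Pyy (-0.08 to 0.43) and 0.36 for Insl5 (-0.40 to 1.13), so a change of 1 on the log2 scale lies outside the intervals of Gcg and Pyy but within that of Insl5. With sex in the model the log2 differences were 0.10, 0.0472 and 0.00306 for Gcg, Pyy and Insl5, and among females alone they were 0.24, 0.0407 and 0.35. Single mice moved them too: Gcg was 0.0911 without Spry2IEKO mouse 12 and 0.11 without Spry2FF mouse 2, and Insl5 was 0.67 without Spry2IEKO mouse 8 and 0.19 without Spry2FF mouse 9. In litter A alone, Pyy was 173 to 209 in Spry2IEKO and 132 to 168 in Spry2FF mice, without overlap. Its log2 difference was 0.36 there and -0.0174 in litter B alone. The sexes were uneven between the genotypes of litter A.

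Sst ran from 2.10 to 14.0 in Spry2IEKO mice and from 6.26 to 12.03 in Spry2FF mice (log2 difference -0.30, 95% interval -1.02 to 0.42, and -0.47 with sex in the model). Without Spry2IEKO mouse 12 the difference was -0.0179, and without Spry2IEKO mouse 4 it was -0.51. The lowest Sst level belonged to Spry2IEKO mouse 12, which was also lowest for Scg2 and for the summed level of 18 enteric neuron genes, at 85.7 against 115 to 194 in the other mice. The part of enteric neurons in the Sst and Scg2 values was not tested.

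Of the 8 genes tested, 0 passed an adjusted p of 0.05 for genotype, against 0.0315% of all genes (5 of 15880). At an unadjusted p under 0.05 there was 1, Chgb, against 6.18% of all genes. The median log2 difference of the 8 genes was 0.24, beside 0.01 over all genes, with 6 positive and 2 negative values. With sex in the model the median was 0.0758.

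By litter, 0 of the 8 genes passed, although 4.38% of all genes did (696 of 15880). At an unadjusted p under 0.05 there were also 0 of 8, against 21.9% of all genes. The log2 differences, litter B minus litter A with genotype in the model, were lowest for Insl5 and Sst, both -0.49, and highest for Tph1, 0.22. Chga, Chgb and Pyy lay between -0.05 and -0.02. Insl5 was 104 to 288 in litter A and 62.9 to 264 in litter B, so the litters overlapped over most of their range.

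The genotype difference itself was compared between litters. Sst was 7.63, 8.27 and 14.0 in the Spry2IEKO mice of litter A against 6.32, 6.68 and 10.6 in their Spry2FF littermates, and 2.10, 4.997 and 6.84 in the Spry2IEKO mice of litter B against 6.26, 7.75 and 12.03. The genotypes overlapped in both litters, with the Spry2IEKO mice toward the high side in A and the low side in B. By limma, the interaction was -1.22 on the log2 scale (95% interval -2.43 to -0.02, adjusted p = 0.998). None of the 8 genes passed the adjusted threshold for the interaction by limma, against 0.0126% of all genes, and 1 of 8, Sst, had an unadjusted p under 0.05, against 4.19%. The sexes were uneven between these groups, the Spry2IEKO mice of litter A being all females and 2 of their 3 Spry2FF littermates males. With sex in the model the Sst interaction was -1.02, and 0 of the 8 had an unadjusted p under 0.05 by limma.

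**Figure D2:**
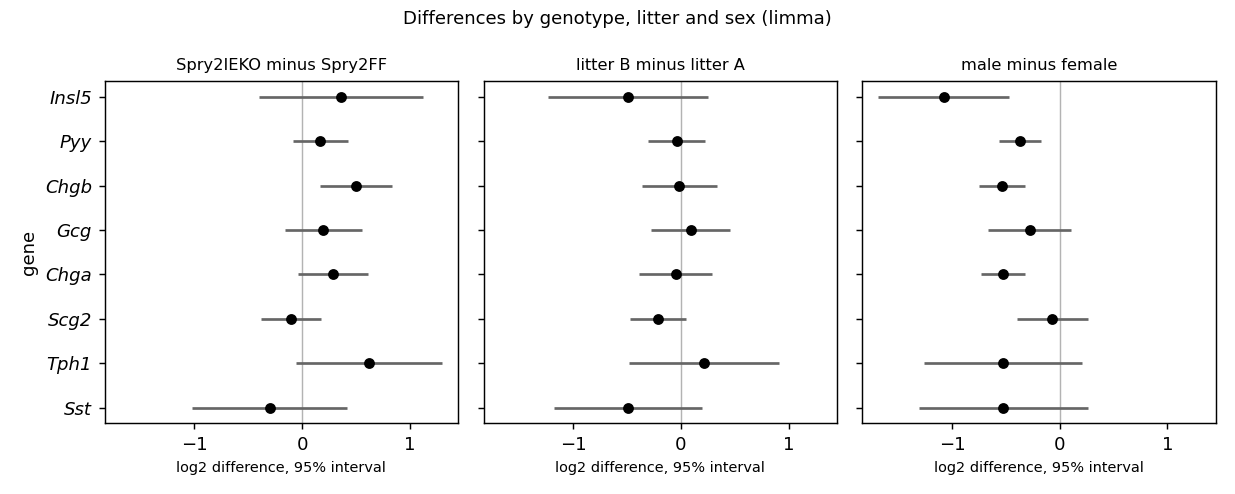
Log2 difference with its 95% interval (limma, log2(normalized TPM + 0.5)) of the 8 tested genes for genotype, litter and sex. For genotype, the interval of Chgb alone excludes 0; for litter every interval includes 0; for sex those of Insl5, Pyy, Chgb and Chga lie below 0.

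The sexes were compared as well, a comparison that was added after the values had been seen. Chga was 26.0, 31.5, 32.4 and 35.6 in the 4 males, and 40.5, 46.2 and 51.3 as lowest, median and highest level in the 8 females. Chgb was 42.8, 45.0, 52.1 and 53.0 in males and 53.4, 79.1 and 90.2 in females. Pyy was 132, 132, 146 and 156 in males and 168, 178 and 209 in females. In all 3 genes every male lay below every female, narrowly so for Chgb, where the lowest female was Spry2FF mouse 13.

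Insl5 was 62.9, 78.1, 104 and 186 in males and 138, 205 and 288 in females, and 1 male, Spry2FF mouse 3, lay within the female range. With genotype in the limma model, the log2 differences, male minus female, were -0.53 for Chga (SE 0.0942), -0.53 for Chgb (SE 0.098), -0.37 for Pyy (SE 0.0894) and -1.08 for Insl5 (SE 0.279). These 4 genes ranked 17th, 20th, 60th and 92nd of 15880 by p. Their adjusted p-values were 0.104, 0.109, 0.346 and 0.39, so 0 of the 8 passed by limma, beside 0.0882% of all genes (14 of 15880).

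At an unadjusted p under 0.05, 4 of the 8 genes were lower in males, against 3.31% of all genes, and 3 of the 8 were lower without overlap, against 0.567%. All 8 log2 differences were negative, with a median of -0.53 beside -0.01 over all genes. Gcg, Tph1 and Sst had log2 differences of -0.28, -0.53 and -0.52 with intervals that include 0, and Scg2 had -0.07. The exact permutation of the 4 male and 8 female labels gave two-sided, unadjusted p-values of 0.00202 for Chga and Chgb, the smallest that this design allows, 0.00404 for Pyy and 0.00808 for Insl5. These permutations took no account of genotype, although 3 of the 4 males were Spry2FF.

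The sexes were also compared within Spry2FF, where they were balanced. Chga was 26.0, 31.5 and 32.4 in the males and 40.5, 45.6 and 50.6 in the females, Chgb was 42.8, 45.0 and 52.1 against 53.4, 69.0 and 72.6, and Pyy was 132, 132 and 156 against 168, 171 and 208. Sst was 6.26, 6.32 and 6.68 against 7.75, 10.6 and 12.03. In these 4 genes the males lay below the females without overlap, against 5.14% of all genes, and Insl5 overlapped. Nts went the other way, at 0.0999 to 0.208 in the males and listed at 0 in the females. With 3 mice against 3 the exact permutation test cannot go below p = 0.1, which all 5 of these genes without overlap reached. Within Spry2IEKO there was 1 male, and sex could not be tested there.

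Smooth muscle genes moved with sex as well. The summed level of 10 such genes was 5848 to 8495 in males and 3458 to 5526 in females, 10 of 10 had higher means in males, and Actg2 passed (log2 difference 0.87, adjusted p = 0.00476 by limma), though not without the male Spry2IEKO mouse 8 (adjusted p = 0.13). Over the 12 mice the mean log2 level of these genes had Pearson r of -0.85 with Gcg, -0.83 with Insl5, -0.72 with Pyy and Chgb, and -0.65 with Chga (described only, without a test). The summed level of 10 epithelial genes was 7084 to 8658 in males and 5793 to 7913 in females, and scaling to these genes gave log2 differences of -0.62 for Chga and -0.63 for Chgb. The part of smooth muscle and epithelium in the sex differences was not tested.

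**Figure D3:**
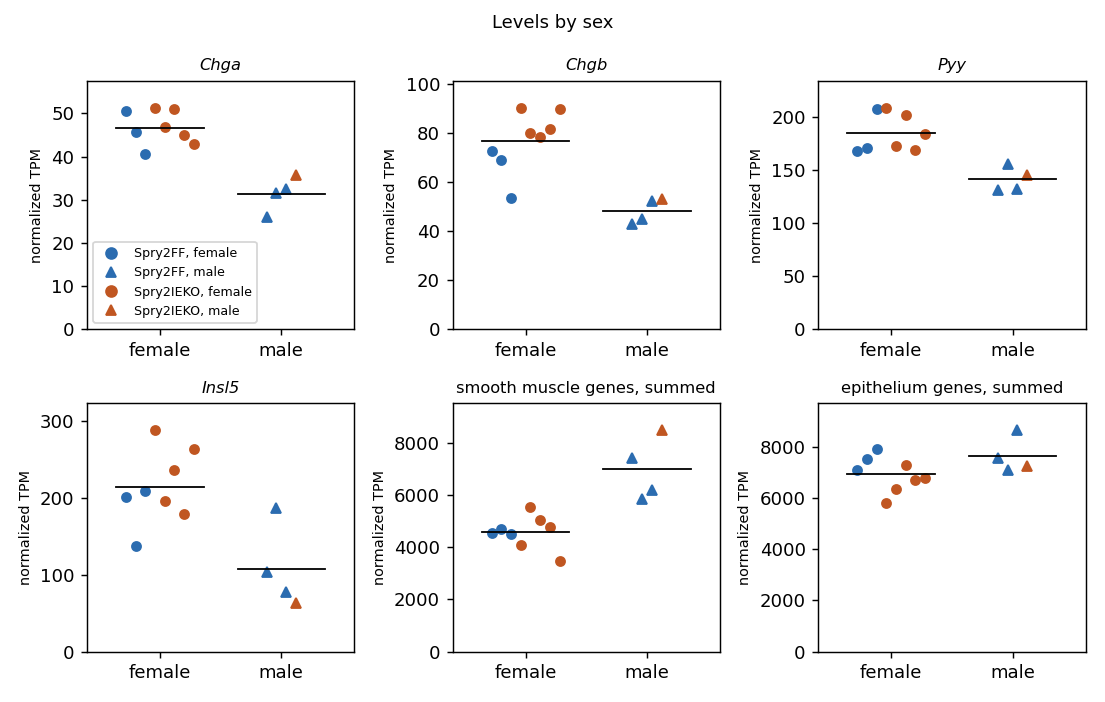
Normalized TPM in 8 females and 4 males for Chga, Chgb, Pyy and Insl5 and for the summed levels of 10 smooth muscle and 10 epithelial genes; each point is a mouse, bars are means, and all axes start at 0. Males lie below females without overlap for Chga, Chgb and Pyy, above them for smooth muscle genes, and within or above their range for epithelial genes.

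L cell genes were then set against enterochromaffin genes in each mouse, as the mean log2 level of Gcg, Pyy and Insl5 minus that of Tph1, Chga and Chgb. The granins are made in both cell types, so only Tph1 marks the second side alone. The difference was 1.34 to 2.34 in Spry2FF mice (mean 1.82 ± 0.39 SD, n = 6) and 1.36 to 1.82 in Spry2IEKO mice (mean 1.59 ± 0.18 SD, n = 6). Spry2IEKO mice lay within the range of Spry2FF mice, whose spread was the wider. Against Tph1 alone the means were 3.28 ± 0.61 and 2.90 ± 0.47 (SD, n = 6 each).

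By sex, the means of both sides were lower in males. The L cell level had a mean of 6.32 in males and 6.91 in females on the log2 scale, and the enterochromaffin level had 4.58 and 5.22. The difference between the sides had a mean of 1.74 ± 0.45 in 4 males and 1.69 ± 0.25 in 8 females (SD). By litter, the means were 1.80 ± 0.30 in A and 1.61 ± 0.32 in B (SD, n = 6 each). These values are a description, without a test.

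**Figure D4:**
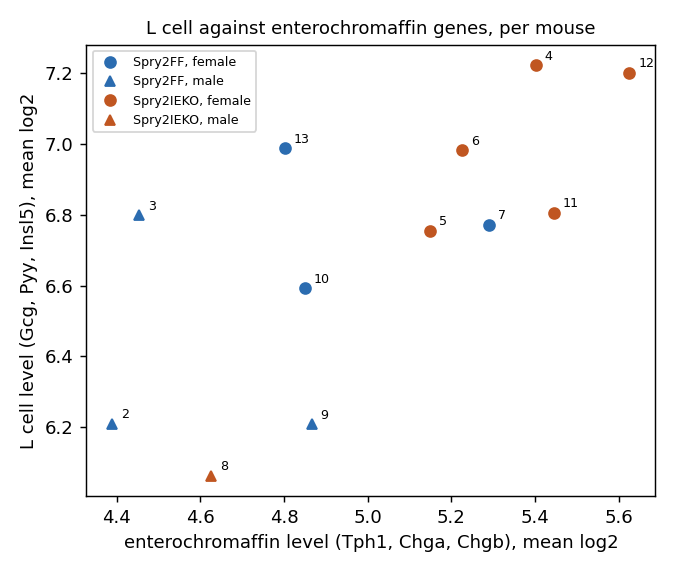
Mean log2 level of the L cell genes against that of the enterochromaffin genes, each point being a mouse with its number. Spry2IEKO mouse 4 is highest for the L cell genes and Spry2IEKO mouse 12 for the enterochromaffin genes, and the males Spry2IEKO 8 and Spry2FF 2 are lowest for each in turn.

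The likeness of the genes to each other was measured as Pearson r over 12 mice on the log2 scale, a description without a test, since the mice differ in sex, litter and tissue makeup. Of 28 pairs, 23 had a positive r and 11 exceeded 0.6. The share over all gene pairs was not counted, so these counts have no background beside them. Chga, at r = 0.66 with Insl5, was the 555th most like Insl5 among 15879 genes. Chga and Chgb were the most alike, with r = 0.89 (Spearman rho 0.80). Among the other 15879 genes, Chgb was the 5th most like Chga. Without the 2 mice farthest from the Chga median r was 0.79, within litters it was 0.96 and 0.76, and among the 8 females it was 0.50.

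Pyy and Insl5 came next with r = 0.84 (rho 0.86), Insl5 being the 11th most like Pyy, and r was 0.67 among females. Gcg had r = 0.74 with Insl5 and 0.65 with Pyy. Chga and Pyy had r = 0.79 over all mice and 0.00 among females. Tph1 was most like Chgb among the 8 genes (r = 0.73, and 0.66 among females).

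Scg2 and Sst had r = 0.70 (rho 0.60), but 0.51 without the 2 mice farthest from the Scg2 median and 0.34 without the 2 farthest from the Sst median. By rank, Sst was more like Chga (rho 0.68) and Pyy (rho 0.64), and without its 2 farthest mice it had r = 0.75 with Pyy and Insl5. Scg2 had r = -0.51 with Tph1 and -0.42 with Gcg, and neither held without the 2 farthest mice, at 0.08 and 0.00. The mean log2 level of enteric neuron genes had r = 0.87 (rho 0.92) with Scg2, 0.68 (rho 0.48) with Sst and -0.12 (rho 0.11) with Chga. The 2 mice lowest for neuronal genes, Spry2IEKO 11 and 12, were also the 2 lowest for Scg2.

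**Figure D5:**
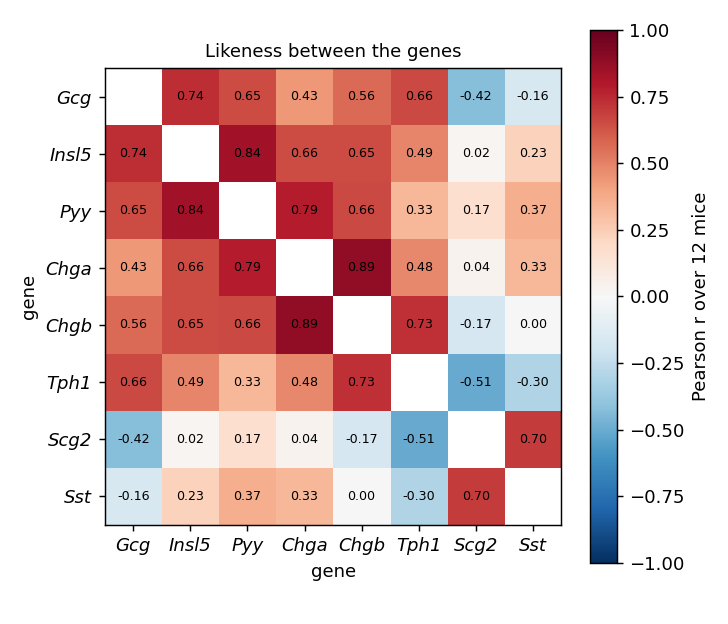
Pearson r over 12 mice between the log2 levels of the 8 tested genes; red is positive and blue negative. Gcg, Insl5, Pyy, Chga, Chgb and Tph1 have positive r with each other, and the highest r of both Scg2 and Sst is the one between them, 0.70.

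For each gene the 3 most similar genes outside the 10 were named. For Gcg, the nearest of all 15879 genes was Ppy (r = 0.91, rho 0.85, and 0.90 without the 2 mice farthest from the Gcg median), followed by Ndufs4 and Rpa3. Within litters Gcg and Ppy had r = 0.84 in A and 0.97 in B, and r was 0.94 among females. Ppy and Pyy, which lie side by side on chromosome 11, had r = 0.55. For Pyy the nearest were Smim26, Ighv1-4 and Hgfac (r 0.86 to 0.89), and for Insl5 they were Ccl6, Cd7 and Riox2 (r 0.94 to 0.95).

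For Tph1 the nearest were Tmem168, Zfp58 and Gspt2 (r 0.88 to 0.90), and for Sst they were Cdc37, Nos1ap and Ighv14-2 (r 0.87 to 0.89). Chga was most like Kdm6a, Sowaha and Serf1 (r 0.89 to 0.93), and Chgb was most like Baat, Ammecr1 and Bambi (r 0.93 to 0.94). Chga and Chgb separated the sexes without overlap, and the part of sex in these r values was not tested. Scg2 was most like Nbas, Aplp1 and Nsg1 (r 0.89 to 0.92), of which Aplp1 and Nsg1 are expressed in neurons.

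Other genes of the enteroendocrine lineage were read from lists. Of 17 transcription factors, 15 were tested, and 0 passed for genotype, litter or sex by limma. Their median log2 difference for genotype was 0.29, beside 0.01 over all genes, with 13 of 15 positive, and with sex in the model it was 0.21, with 11 of 15 positive. By genotype alone, only Nkx2-2 had an unadjusted p under 0.05, against 6.18% of all genes (log2 difference 0.62, adjusted p = 0.76 by limma). Their levels were low, with Nkx2-2 between 0.296 and 2.82. By sex, the median was -0.18, beside -0.01 over all genes, with 13 of 15 negative. The log2 differences were -0.84 for Pax4, -0.55 for Insm1 and 0.54 for Isl1, named after the values were seen. Each had an unadjusted p under 0.05 by limma, as did 1016 of all 15880 genes, and none passed the adjusted threshold.

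Of 17 genes of granule biogenesis and prohormone processing, 16 were tested. By genotype 0 passed, with a median log2 difference of 0.01. Only Ptprn had an unadjusted p under 0.05 by limma, against 6.18% of all genes (-0.33, adjusted p = 0.80). By litter 3 of 16 passed, against 4.38% of all genes, and all 3 were lower in litter B: Ptprn2, the granule membrane protein phogrin (-0.78, adjusted p = 0.0101), Rab3d, a vesicle GTPase (-0.33, adjusted p = 0.0123), and Pam, which amidates peptide hormones (-0.26, adjusted p = 0.0321). Ptprn2 and Rab3d passed in all 12 fits that left out 1 mouse, and Pam in 3 of them. None of the 3 passed by limma in females, Spry2FF mice or Spry2IEKO mice alone (adjusted p of 0.103 to 0.414). In each of those fits 1 of all genes passed. The list's median for litter was -0.18, beside -0.05 over all genes. Pam and Rab3d, at mean levels of 134 and 70.7, were more abundant than the 3 granins and are also used outside endocrine cells.

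Of 9 further enterochromaffin genes, 8 were tested, and 0 passed for genotype. Tac1, which codes for substance P and is also a neuronal gene, had a log2 difference of -0.31. Piezo2, a mechanosensitive channel, had 0.31, and Maoa, which degrades serotonin, had -0.18. Each had an unadjusted p under 0.05 by limma, as did 6.18% of all genes, and an adjusted p of 0.753 to 0.782. The list's median for genotype was -0.04. By litter 1 of 8 passed, against 4.38% of all genes: Maoa (0.20 higher in litter B, adjusted p = 0.0472), which passed in 1 of 12 fits that left out 1 mouse. Also by litter, Slc18a2, a vesicular monoamine transporter, and Gch1 had unadjusted p-values under 0.05 (0.37 and 0.27), as did 21.9% of all genes. Among 9 other gut hormones, 5 were tested and 0 passed for genotype or litter. Ppy had a log2 difference of 0.30 for genotype (95% interval -0.15 to 0.75).

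Of 11 nutrient and bile acid sensors, 8 were tested and 0 passed. By genotype Ffar4, a long-chain fatty acid receptor, had a log2 difference of 0.50 (adjusted p = 0.611 by limma), Ffar2, a short-chain fatty acid receptor, had 0.63 (adjusted p = 0.809), and Slc5a1, the sodium-glucose transporter, had -0.27 (adjusted p = 0.25). By litter, Ffar2 had -0.67, Ffar4 had -0.35 and Slc5a1 had -0.11. The receptors of the hormones were mostly low: of 23, 12 reached a mean of 0.5. Rxfp4, the receptor of insulin-like peptide 5, had a mean of 0.0676 and Glp1r had 0.0414, both far below their ligands. By genotype 0 of the 12 passed. Only Sort1, a neurotensin-binding sorting receptor, had an unadjusted genotype p under 0.05 by limma (-0.24, adjusted p = 0.796). That level was reached by 6.18% of all genes. By litter 1 of 12 passed, against 4.38% of all genes. Sort1 was lower in litter B (-0.33, adjusted p = 0.0197, and 0.0545 without Spry2IEKO mouse 5). Sstr2 at -0.52, Sstr1 at -0.49 and Glp2r at -0.44 did not pass.

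Several values rest on more than 1 transcript. Chgb and Sst each had a single transcript, and 99.9% of the Insl5 level came from ENSMUST00000084382. Pyy was spread over 4 transcripts, the first holding 75.9%, and Gcg over 3, the first holding 85.8%. Scg2 was divided between ENSMUST00000185234, with 60.3%, and ENSMUST00000049972, with 39.7%. For Tph1, whose 2 leading transcripts held 38.9% and 36.9%, retained-intron entries were part of the sum, with up to 9.48% for a single entry. In GRCm38, Chga lies at chr12:102554969-102565028, Chgb at chr2:132781278-132795079, Gcg at chr2:62474530-62483650, Pyy at chr11:102106676-102107832, Insl5 at chr4:103017872-103026842 and Tph1 at chr7:46644641-46672537.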

How the data were processed

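Whole-wall distal colon of 12 mice was sequenced as RNA by the authors, who pseudoaligned the reads with kallisto. The submitters' processing notes name CASAVA, kallisto, sleuth and mm10. The labels call the reads paired-end and the study's methods single-ended. The deposited values are a signal per transcript, TPM scaled between mice in a way not given in the sources used here. The deposited p-values, q-values and other columns of the authors' own comparison were not used. Read depth is not in the values, so no counting interval was made, and a 0 is given as listed at 0.

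The table holds 113974 entries for 113193 transcripts. After 781 repeats were dropped and 24 names that had turned into dates were restored through Ensembl identifiers, transcripts were summed to 35241 symbols. The model was limma 3.58.1 (R 4.3.3; lmFit, then eBayes with trend; two-sided; Benjamini-Hochberg) applied to log2(signal + 0.5) of the 15880 genes whose mean reached 0.5. A log2 difference understates the change of low genes. Genotype was fitted alone, and litter and sex with genotype as a covariate. The design had assumed unscaled TPM, and its tests were not altered. Exact permutation over mice was used for single genes (Python 3.11.15, SciPy 1.17.1, NumPy 2.4.6, pandas 2.3.3; figures with matplotlib 3.10.9). Both tests were checked on simulated data. Each mouse is 1 replicate.

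The 10 genes and all lists were chosen with earlier results of these data known. Named from the lists of enteroendocrine genes, sensors and receptors were genes past an adjusted p of 0.05, up to 3 by genotype and by litter with an unadjusted p under 0.05 and the largest differences, and defining markers. For each gene of the 8 tested, the 3 others with the highest r were named. The sex comparison, fits with sex and litter together and the exact test among females were added after the values had been seen. Alternatives were another pseudocount, filter, scaling or covariate, single litters, sexes or genotypes, and leaving out each mouse. Sequences are from RefSeq promoter windows and positions from GENCODE M21.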

Additional observations from a re-analysis of the deposited data

Results flagged for a closer look

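A mouse far from the others of its group was looked for in the genotype groups and in the sexes, over the 10 genes and the difference between L cell and enterochromaffin levels. Of 44 groups, 6 held such a mouse, with Nts in Spry2IEKO mouse 5 counted in both its genotype and its sex group. No chance rate can be set beside this count, because the groups share mice and some Nts and Cck values are 0. Chgb in the male Spry2IEKO mouse 8 was 53.0, below the 78.2 to 90.2 of the other Spry2IEKO mice, all females. Tph1 in the male Spry2FF mouse 9 was 13.8, above the 6.74 to 7.51 of the other males. Nts in Spry2IEKO mouse 5 was 0.638, above the 0 to 0.202 of the other Spry2IEKO mice and of the other females. Cck in Spry2FF mouse 13 was 1.51 against 0 to 0.469 in the other females, and in Spry2FF mouse 2 it was 0.765 against 0.386 to 0.429 in the other males. Nts and Cck are near 0 throughout.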

How the results depend on the processing

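No gene of the 10 passed the adjusted threshold for genotype, litter or the interaction under any alternative run. For sex it was 0 to 1 when each mouse was left out: Chgb passed without Spry2FF mouse 13 (-0.62, adjusted p = 0.0156) and Insl5 without Spry2FF mouse 3 (-1.35, adjusted p = 0.0476), while over all alternatives the adjusted p ran from 0.0156 to 0.889 for Chgb and from 0.0476 to 1 for Insl5. The cause was not tested.

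Over all genes, the 5 called for genotype became 1 without a filter, with sex, with sex and litter, or in litter B alone, 2 with quantile normalization, among females or in litter A alone, and 8 when scaled to the epithelial genes, which moved the median of all genes to 0.17, and 1 to 11 when each mouse was left out. The 696 called for litter became 422 without a filter, 234 when scaled to the epithelial genes, 1 in females, Spry2FF mice or Spry2IEKO mice alone, and 180 to 957 when each mouse was left out. Those called for sex, 14, became 9 in Spry2FF mice alone and 7 to 20 when each mouse was left out.

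When each mouse was left out, the genotype differences ran from 0.43 to 0.61 for Chgb, 0.19 to 0.38 for Chga, 0.42 to 0.82 for Tph1, 0.0911 to 0.29 for Gcg, 0.12 to 0.25 for Pyy, 0.19 to 0.67 for Insl5, -0.51 to -0.0179 for Sst and -0.18 to -0.0330 for Scg2. The sign of a genotype difference turned for Pyy in litter B alone (-0.0174), for Sst in litter A alone (0.31) and for Scg2 in litter A alone (0.0486) and when scaled to the epithelial genes (0.0624, which is below that scaling's median). For litter it turned in Spry2FF mice alone for Pyy (0.15), Sst (0.12), Chga (0.18) and Chgb (0.15), for Chgb with quantile normalization (0.00497), and on leaving out a mouse, with ranges of -0.0185 to 0.21 for Gcg, -0.13 to 0.0207 for Pyy, -0.16 to 0.0459 for Chga and -0.0945 to 0.10 for Chgb. The interaction turned with sex as a covariate for Gcg (0.14), Insl5 (0.30) and Chgb (0.0304). No sign turned for sex. On leaving out a mouse, the sex differences ran from -1.35 to -0.64 for Insl5, -0.76 to -0.17 for Tph1 and -0.40 to -0.11 for Gcg. They ran from -0.60 to -0.46 for Chga, -0.62 to -0.47 for Chgb and -0.42 to -0.31 for Pyy. For Sst they ran from -0.65 to -0.44, and for Scg2 from -0.16 to -0.00469.

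Depth is unknown, so levels near 0, as of Nts and Cck, cannot be bounded. Mice could not be paired one by one, because the mice of the 2 genotypes share no replicate number. Litter was taken into account through fits with litter as a covariate and permutation within litters.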
